A study of Mus musculus with 10 samples.

Results

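The expression of 33 genes that carry sugars into cells, burn them in glycolysis, make them in gluconeogenesis, use fructose or link glycolysis to oxygen sensing was described in mouse colon tissue. The genes were taken by name from a list chosen with earlier results of these data known, and all 33 were found among the 18398 genes of the deposited expression table. The 10 samples were colon of wild-type (WT) mice, with 5 on a normal diet and 5 on a diet labelled pro-inflammatory, and the comparison asks which genes differ between the diets. What the diets contained, and the strain, age and sex of the mice, are not given in the labels used here. The labels also leave unsaid whether each sample is a different animal and whether any had colitis, so the p-values speak of variation among these 10 samples, some of which may be technical. Values are FPKM, which corrects fragment numbers for the length of the gene and for library size, so levels can be compared roughly between genes. Such comparisons are uncertain for genes with processed copies elsewhere in the genome, as described below. Each library held 15652783 to 18341956 reads on genes.

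Glycolysis splits glucose into pyruvate in the cytosol, and most of its steps can be run by more than one isoform, each with its own tissue preference. Gluconeogenesis runs the same path backwards through separate enzymes at the irreversible steps. The hypoxia-inducible factors, HIF for short, are transcription factors that raise many glycolytic genes when oxygen is low, and the colon epithelium, which faces an almost oxygen-free lumen, is known for a steep oxygen gradient and for burning butyrate beside glucose.

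Several libraries stood apart from the rest of their group. Hoxb13, a positional gene of the distal colon, was at 0.417 and 20.9 FPKM in pro-inflammatory diet libraries 2 and 5 and at 211 to 342 FPKM in the other 8. Dbp, an output gene of the circadian clock, was at 1.79 to 6.69 FPKM in normal diet libraries 1, 2 and 3 and at 12.4 to 54.3 FPKM in the other 7. The summed level of 7 skeletal muscle markers was 513 FPKM in normal diet library 4 and 9.77 to 20.9 FPKM in the other 9, with Acta1 at 179 FPKM in that library, while Myh4 was at 0.103 FPKM there and at 0 elsewhere. Normal diet library 4 also listed fewer genes at 0 FPKM, 1179 against 1671 to 2041 in the other 9. The liver gene Alb was at 97.3 and 100.4 FPKM in pro-inflammatory diet libraries 1 and 3 and at 0.166 to 8.45 FPKM in the other 8. Colon epithelium and smooth muscle markers were abundant in every library: 10 of 10 markers of each had a mean of at least 1 FPKM, and their sums were 5287 to 7654 and 2387 to 4055 FPKM. Some marker lists also stood at different levels in the diets, with 0 of their genes past the adjusted threshold. At an unadjusted p under 0.05, 8.16% of all tested genes were higher on the pro-inflammatory diet and 9.25% lower. Smooth muscle sums were 2728 to 4055 FPKM on the normal and 2387 to 3264 FPKM on the pro-inflammatory diet, with 0 of 10 log2 fold changes above 0 and 7 markers lower at an unadjusted p under 0.05. Red blood cell sums were 16.7 to 29.7 against 23.3 to 83.2 FPKM, with 4 of 4 above 0, 3 of them at an unadjusted p under 0.05, and a median log2 fold change of 0.95. Immune markers summed to 187 to 290.4 against 211 to 375 FPKM, with 10 of 10 above 0, 1 at an unadjusted p under 0.05, and a median of 0.35. Epithelium sums were 5287 to 7234 against 6287 to 7654 FPKM, with 7 of 10 above 0, 1 higher at an unadjusted p under 0.05, and a median of 0.15. Colonocyte sums were 3022 to 3864 against 3833 to 5725 FPKM, with 3 of 6 above 0, 1 higher at an unadjusted p under 0.05, and a median of -0.12. Adipocyte markers had 4 of 4 tested above 0, with a median of 0.75 and 0 at an unadjusted p under 0.05. Goblet cell, endothelium and enteric neuron and glia lists had 3 of 7, 2 of 5 and 3 of 7 above 0, and 0 at an unadjusted p under 0.05. The part of these lists in the values below was not tested beyond a tissue make-up score used as a covariate.

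None of the sugar genes passed the threshold. With limma on log2(FPKM + 1) over the 12345 genes with a mean of at least 1 FPKM, 0 of the 31 members tested had an adjusted p under 0.05, and limma's voom on recovered whole reads also called 0. Over all tested genes 0% were called. At an unadjusted p under 0.05, 6 members were higher on the pro-inflammatory diet, or 19.4% where all tested genes gave 8.16%, and 0 were lower, where all tested genes gave 9.25%. The 6 were Pfkl, Fbp2, Pklr, Tpi1, Pdk1 and Eno1. The groups did not overlap for 2 members, Pfkl and Fbp2, both higher, where 1.77% of all tested genes did so in that direction and 2.07% in the other. Of the 31 log2 fold changes, 22 were above 0, beside 47.1% of all tested genes, with a median of 0.12 against -0.013 over all tested genes. Because the list was chosen with earlier results of these data known, these counts describe it and carry no test. Hk3 and Slc2a2 were under the filter on low values, and Fbp1 passed it only through its level in the pro-inflammatory diet group. In whole tissue, fewer cells of a type and less RNA per cell cannot be told apart.

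The count of 6 depended on which libraries were compared. Without the Hoxb13-low libraries 2 and 5 of the pro-inflammatory diet, 14 members were higher at an unadjusted p under 0.05, beside 8.06% of all tested genes, and 1 (Ldhb) was lower. Without the Dbp-low normal diet libraries 1, 2 and 3, 2 members were higher, Pfkl and Fbp2, beside 1.81%. Without pro-inflammatory diet libraries 1 and 3 the count was 3, beside 9.86%. Leaving out single libraries gave 3 to 12. The count was 3 without normal diet library 2 or 3, beside 5.25% and 5.82% of all tested genes, 12 without normal diet library 4, beside 9.87%, and 10 without pro-inflammatory diet library 2, beside 6.63%. With a clock gene score as covariate the count was 3, beside 8.22%, with a distal colon score 19, beside 8.89%, with array weights 16, beside 10.7%, and without normal diet library 4 and pro-inflammatory diet libraries 2 and 5, a setting chosen after seeing the data, 20, beside 11.8%. Fbp1, past the filter on low values only through the pro-inflammatory diet group, is among the 14, the 10 and the 20. In the 27 alternative settings run, 0 members passed the adjusted threshold, while Pfkl and Fbp2 had an unadjusted p under 0.05 in all 27, Pklr in 25, Pdk1 in 19, Tpi1 in 16 and Eno1 in 15.

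**Figure D1:**
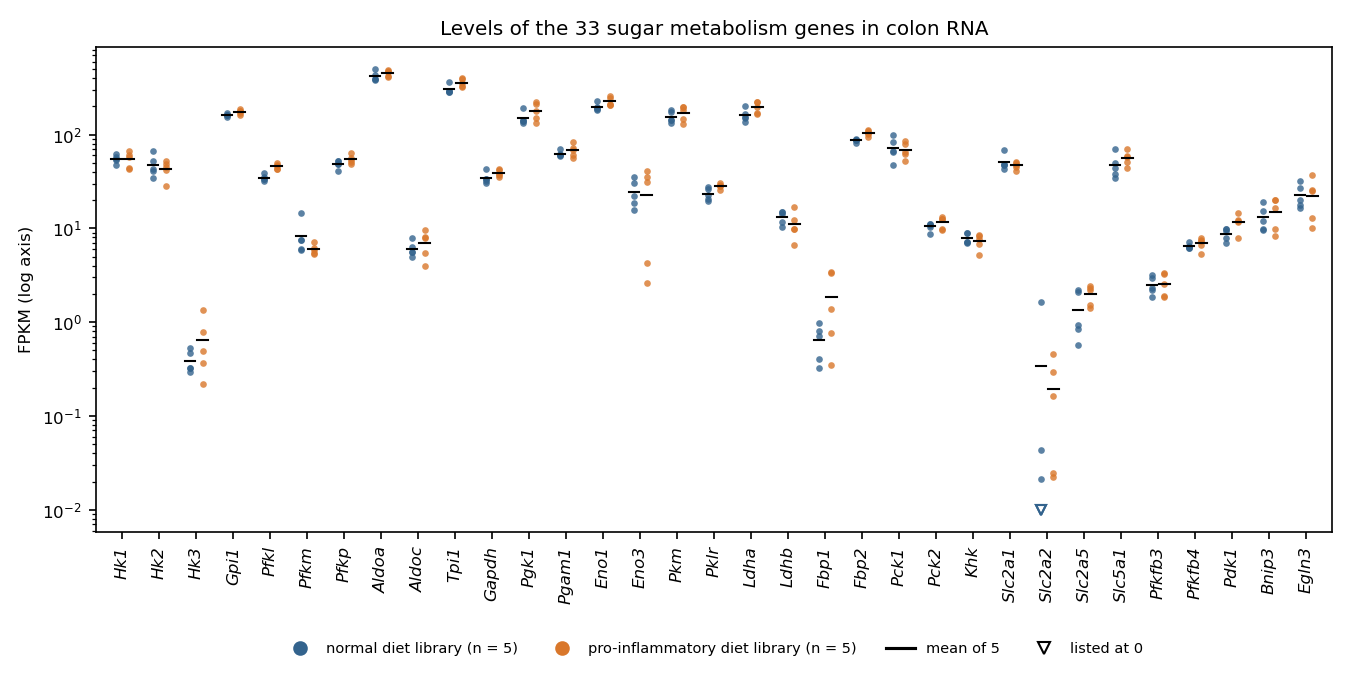
FPKM of each of the 33 members on a log axis, with 1 point per library (5 per diet, blue for normal and orange for pro-inflammatory) and a bar at the mean of 5. Open triangles mark libraries listed at 0. Levels ran from Slc2a2, at 0 in normal diet libraries 1 and 2, to Aldoa, at 385 to 499 FPKM, and Pfkl and Fbp2 showed no overlap between the diets.

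**Figure D2:**
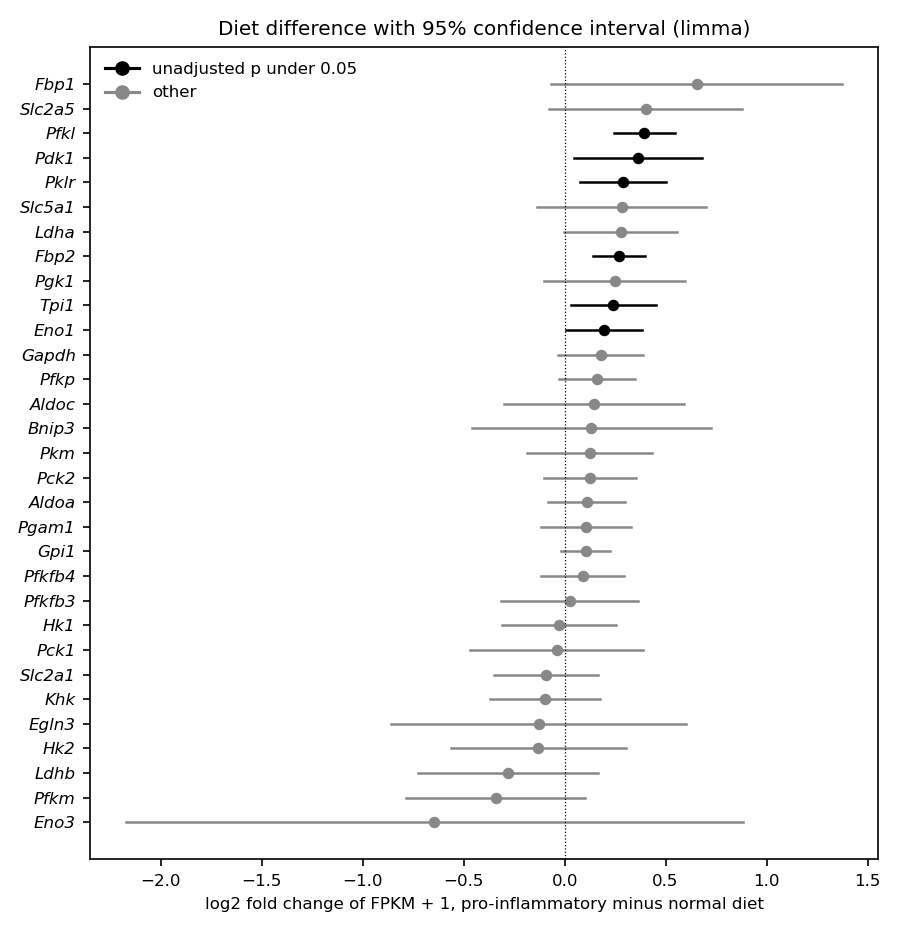
Log2 fold change of FPKM + 1, pro-inflammatory minus normal diet, for the 31 tested members with its 95% confidence interval from limma. Black marks the 6 with an unadjusted p under 0.05, all to the right of 0, and the interval of Eno3 was the widest, from -2.17 to 0.88.

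Glucose is first trapped by hexokinase. Hk1, the housekeeping form, and Hk2, the insulin- and hypoxia-responsive form, were at similar levels. Hk1 was at 47.2, 54.6, 53, 61.95 and 57.4 FPKM in normal diet libraries 1 to 5 and 57.7, 42.97, 66.5, 60.2 and 44.4 FPKM in pro-inflammatory diet libraries 1 to 5. Its lowest values on the pro-inflammatory diet were in libraries 2 and 5, and the groups overlapped (log2 fold change -0.026, 95% interval -0.31 to 0.26, limma adjusted p = 0.926). Hk2 was at 34.8, 67.4, 40.6, 52.8 and 42.7 FPKM in normal diet libraries 1 to 5 and 47.99, 42.2, 52.04, 44.8 and 28.5 FPKM in pro-inflammatory diet libraries 1 to 5. Normal diet library 2 was the highest and pro-inflammatory diet library 5 the lowest of the 10, and the groups overlapped (log2 fold change -0.13, 95% interval -0.56 to 0.30, limma adjusted p = 0.731). Hk3, a form of myeloid cells, was at 0.22 to 1.34 FPKM, from 14 to 81 reads, and was highest in pro-inflammatory diet library 2. The isomerase Gpi1, which turns glucose 6-phosphate into fructose 6-phosphate, was at 170.1, 161, 156, 162 and 163 FPKM in normal diet libraries 1 to 5 and 176, 187, 163, 168 and 179 FPKM in pro-inflammatory diet libraries 1 to 5. It varied least of the 32 members with at least 1 read in every library, and the groups overlapped (log2 fold change 0.10, 95% interval -0.016 to 0.22, limma adjusted p = 0.335).

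Phosphofructokinase commits sugar to glycolysis, and its liver-type subunit Pfkl (chromosome 10, 77986947 to 78010083, minus strand, GRCm38) was the member with the smallest p. Pfkl was at 35.5, 33.5, 31.6, 38.8 and 33.8 FPKM in normal diet libraries 1 to 5 and 42.4, 42.7, 49.5, 46.7 and 47.7 FPKM in pro-inflammatory diet libraries 1 to 5. All 5 pro-inflammatory diet libraries lay above all 5 on the normal diet (34.6 ± 2.704 against 45.8 ± 3.14 FPKM, SD, n = 5 each; log2 fold change 0.39, 95% interval 0.24 to 0.55, limma adjusted p = 0.151). Its log2 fold change was 0.41 without pro-inflammatory diet libraries 2 and 5 and 0.33 without normal diet libraries 1, 2 and 3. The platelet-type subunit Pfkp was the most abundant of the 3 subunits, at 48.6, 48.6, 41.1, 52.4 and 51.7 FPKM in normal diet libraries 1 to 5 and 53.6, 62.8, 50.9, 48.6 and 55.6 FPKM in pro-inflammatory diet libraries 1 to 5. The groups overlapped in Pfkp (log2 fold change 0.16, 95% interval -0.030 to 0.35, limma adjusted p = 0.345). Pfkm, the muscle subunit, was at 7.58, 5.88, 5.96, 14.5 and 7.45 FPKM in normal diet libraries 1 to 5 and 7.21, 5.297, 6.17, 5.87 and 5.47 FPKM in pro-inflammatory diet libraries 1 to 5. Normal diet library 4, the one with skeletal muscle markers, held the highest Pfkm, and the log2 fold change went from -0.34 (limma adjusted p = 0.382) to -0.14 without it.

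Aldolase and triosephosphate isomerase make and interconvert the triose phosphates. Aldoa, the muscle and ubiquitous aldolase, was the most abundant member. It was at 393, 394, 385, 499 and 427 FPKM in normal diet libraries 1 to 5 and 471, 411, 468, 487 and 421 FPKM in pro-inflammatory diet libraries 1 to 5. Normal diet library 4 was the highest and the groups overlapped (log2 fold change 0.11, 95% interval -0.081 to 0.30, limma adjusted p = 0.501). Aldoc, the brain-type aldolase, was far lower, at 3.92 to 9.67 FPKM (log2 fold change 0.15, 95% interval -0.30 to 0.59, limma adjusted p = 0.705). Tpi1 was at 289.8, 283, 282, 365 and 294 FPKM in normal diet libraries 1 to 5 and 350.1, 319.5, 403, 390.4 and 327 FPKM in pro-inflammatory diet libraries 1 to 5. Leaving aside normal diet library 4, at 365 FPKM, the normal diet libraries lay between 282 and 294 FPKM, under every pro-inflammatory diet library (log2 fold change 0.24, 95% interval 0.031 to 0.45, limma adjusted p = 0.2403).

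The later steps of glycolysis yield ATP. Pgk1, the phosphoglycerate kinase (chromosome X, 106187100 to 106203699, plus strand), was at 143, 139, 133, 191 and 139 FPKM in normal diet libraries 1 to 5 and 179, 131, 212, 224 and 149 FPKM in pro-inflammatory diet libraries 1 to 5. It was high in normal diet library 4 and in pro-inflammatory diet libraries 1, 3 and 4 and lay between 131 and 149 FPKM in the other 6 (log2 fold change 0.25, 95% interval -0.10 to 0.60, limma adjusted p = 0.4098). Eno1, the ubiquitous enolase, was at 181, 192, 186, 227 and 197 FPKM in normal diet libraries 1 to 5 and 214, 207, 243, 257 and 207 FPKM in pro-inflammatory diet libraries 1 to 5. The 4 highest values were in the same 4 libraries as those of Pgk1 (log2 fold change 0.20, 95% interval 0.0056 to 0.38, limma adjusted p = 0.277). Pkm, the pyruvate kinase of most tissues, was at 143, 144, 131, 184 and 173 FPKM in normal diet libraries 1 to 5 and 197, 129.9, 181, 197 and 145 FPKM in pro-inflammatory diet libraries 1 to 5. The groups overlapped, with the lowest value in pro-inflammatory diet library 2 (log2 fold change 0.12, 95% interval -0.18 to 0.43, limma adjusted p = 0.641).

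Gapdh and Pgam1 stand between these steps. Gapdh was at 31.6, 33.95, 30.1, 42.8 and 33.4 FPKM in normal diet libraries 1 to 5 and 37.04, 37.6, 42.8, 41.5 and 35.2 FPKM in pro-inflammatory diet libraries 1 to 5, well under its neighbours Tpi1 and Pgk1 on the same per-length scale. The groups overlapped (log2 fold change 0.18, 95% interval -0.033 to 0.39, limma adjusted p = 0.345). Pgam1, the phosphoglycerate mutase, was at 59.9, 60.97, 62.5, 69.5 and 58.7 FPKM in normal diet libraries 1 to 5 and 68.8, 59.8, 82.6, 71.1 and 55.95 FPKM in pro-inflammatory diet libraries 1 to 5, highest in pro-inflammatory diet library 3 and overlapping between the diets (log2 fold change 0.11, 95% interval -0.12 to 0.33, limma adjusted p = 0.577). Several of these genes have processed copies elsewhere in the genome. GENCODE M21 names 2 pseudogenes or related sequences, with the suffix ps or rs, after each of Gapdh, Aldoa, Pgam1 and Ldha and 3 after Pgk1. Copies under other names were not counted, so these numbers are minima, and members without such a name, such as Tpi1, Eno1 and Pkm, may have copies too. Reads of genes with processed copies can be lost or split in counting, so their absolute levels are uncertain.

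The other enolase, Eno3, known as the muscle form, varied more than any other member with a read in every library. Eno3 (chromosome 11, 70657202 to 70662513, plus strand) was at 18.4, 22.3, 15.8, 35.1 and 30.4 FPKM in normal diet libraries 1 to 5 and 40.4, 2.61, 31.4, 35.03 and 4.27 FPKM in pro-inflammatory diet libraries 1 to 5. Pro-inflammatory diet libraries 2 and 5, where Hoxb13 was low, held 2.61 and 4.27 FPKM and every other library at least 15.8 FPKM (log2 fold change -0.65, 95% interval -2.17 to 0.88, limma adjusted p = 0.619). Without these 2 libraries the log2 fold change was 0.58, the opposite sign, so its direction over all libraries rested on them. With the distal colon score as a covariate it was 0.64. Skeletal muscle markers summed to 11.0 FPKM in pro-inflammatory diet library 1, where Eno3 was highest. They summed to 513 FPKM in normal diet library 4, where Eno3 was next highest, at 35.1 FPKM. Their part in Eno3 was not tested.

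Pyruvate kinase and lactate dehydrogenase set the end of the pathway. Pklr, the liver and red-cell pyruvate kinase, was at 22.6, 20.4, 19.6, 27.7 and 25.97 FPKM in normal diet libraries 1 to 5 and 25.8, 28.4, 28.9, 28.5 and 30.7 FPKM in pro-inflammatory diet libraries 1 to 5. The pro-inflammatory diet libraries sat at 25.8 to 30.7 FPKM, and normal diet libraries 4 and 5, at 27.7 and 26.0 FPKM, reached into that range (log2 fold change 0.29, 95% interval 0.077 to 0.50, limma adjusted p = 0.195). Its log2 fold change was 0.080 without normal diet libraries 1, 2 and 3. The 4 red blood cell markers summed to 74.1, 23.3, 65.7, 26.8 and 83.2 FPKM in pro-inflammatory diet libraries 1 to 5 and to 16.7 to 29.7 FPKM on the normal diet, and their part in Pklr was not tested. Ldha, which reduces pyruvate to lactate (chromosome 7, 46841475 to 46855627, plus strand), was at 148, 152, 135, 203 and 166 FPKM in normal diet libraries 1 to 5 and 196, 164, 222, 224 and 169.8 FPKM in pro-inflammatory diet libraries 1 to 5. Normal diet libraries 1, 2 and 3 were the lowest 3 of the 10, and normal diet library 4 lay inside the pro-inflammatory range (log2 fold change 0.28, 95% interval -0.0018 to 0.56, limma adjusted p = 0.2898). Ldhb, the form that favours lactate oxidation, was at 14.1, 10.4, 14.8, 15.1 and 11.7 FPKM in normal diet libraries 1 to 5 and 9.73, 12.3, 9.77, 6.62 and 16.9 FPKM in pro-inflammatory diet libraries 1 to 5. Its lowest value was in pro-inflammatory diet library 4 and its highest in library 5 of the same diet (log2 fold change -0.28, 95% interval -0.73 to 0.17, limma adjusted p = 0.463).

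**Figure D3:**
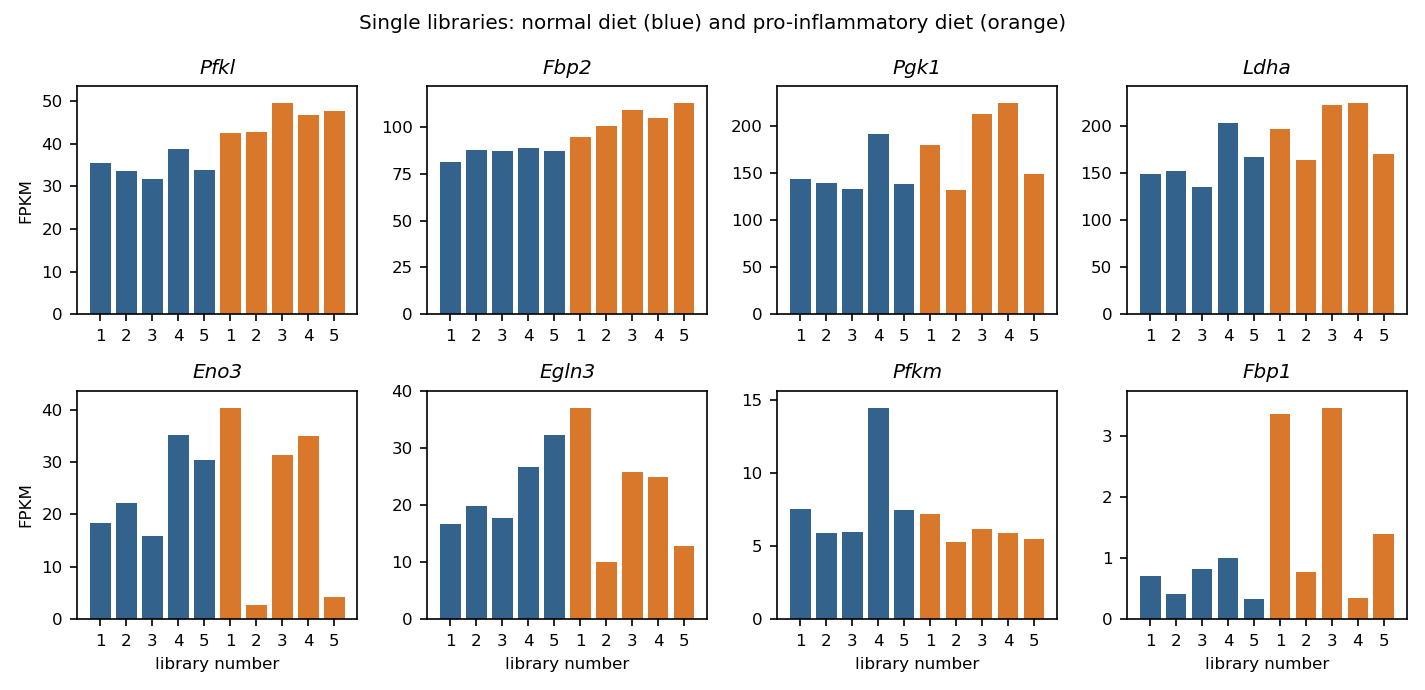
FPKM of 8 members in each library, as bars from 0, with the library number on the x axis, normal diet in blue and pro-inflammatory diet in orange. Pfkl and Fbp2 separated the diets, while Eno3 and Egln3 were lowest in pro-inflammatory diet libraries 2 and 5, Pfkm was highest in normal diet library 4, at 14.5 FPKM, and Fbp1 in pro-inflammatory diet libraries 1 and 3.

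Gluconeogenesis reverses the phosphofructokinase step through fructose-1,6-bisphosphatase. Fbp2, known as the muscle form (chromosome 13, 62836877 to 62858422, minus strand), was the main one in these colons. Fbp2 was at 81.3, 88, 87.2, 88.8 and 87.1 FPKM in normal diet libraries 1 to 5 and 94.9, 101, 109, 105 and 113 FPKM in pro-inflammatory diet libraries 1 to 5. The groups did not overlap (86.5 ± 2.996 against 104 ± 7.09 FPKM, SD, n = 5 each; log2 fold change 0.27, 95% interval 0.14 to 0.40, limma adjusted p = 0.151). Normal diet libraries 2 to 5 lay within 87.1 to 88.8 FPKM. Fbp1, the liver form (chromosome 13, 62864753 to 62888282, minus strand), was at 0.708, 0.408, 0.813, 0.9902 and 0.322 FPKM in normal diet libraries 1 to 5 and 3.35, 0.765, 3.45, 0.351 and 1.39 FPKM in pro-inflammatory diet libraries 1 to 5, from 10 to 109 reads. Its 2 highest values, 3.35 and 3.45 FPKM, were in the libraries with Alb at 97.3 and 100.4 FPKM, where Apoa2 was at 33.02 and 29.95 FPKM and Fabp1, of liver and small intestine, at 39.3 and 37.2 FPKM. The sum of the 4 liver markers was 185 and 184 FPKM there and 1.35 to 48.8 FPKM in the other 8, and its part in Fbp1 was not tested. The log2 fold change of Fbp1 went from 0.65 (limma adjusted p = 0.322) to 0.13 without these 2 libraries.

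Phosphoenolpyruvate carboxykinase opens gluconeogenesis, with Pck1 in the cytosol and Pck2 in mitochondria. Pck1 was at 97.7, 66.3, 64.3, 47.4 and 82.8 FPKM in normal diet libraries 1 to 5 and 85.5, 62.2, 51.8, 65.5 and 78.7 FPKM in pro-inflammatory diet libraries 1 to 5. Normal diet libraries 1 and 4 were the highest and the lowest of the 10, so that 1 group held both extremes (log2 fold change -0.040, 95% interval -0.47 to 0.39, limma adjusted p = 0.926). Pck2 was at 8.78 to 13.1 FPKM (log2 fold change 0.12, 95% interval -0.10 to 0.35, limma adjusted p = 0.5203). Khk, ketohexokinase, which phosphorylates fructose, was at 7.22, 8.98, 7.09, 8.93 and 7.05 FPKM in normal diet libraries 1 to 5 and 8.26, 5.24, 7.72, 6.86 and 8.55 FPKM in pro-inflammatory diet libraries 1 to 5. The groups overlapped (log2 fold change -0.10, 95% interval -0.37 to 0.18, limma adjusted p = 0.682).

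Sugar carriers were led by Slc5a1, the sodium-coupled glucose carrier SGLT1, and Slc2a1, the glucose carrier GLUT1. Slc5a1 was at 43.4, 37.8, 34.2, 70.9 and 49.6 FPKM in normal diet libraries 1 to 5 and 57.7, 43.97, 59.2, 70.5 and 50.9 FPKM in pro-inflammatory diet libraries 1 to 5. It was highest in normal diet library 4 and pro-inflammatory diet library 4 (log2 fold change 0.28, 95% interval -0.14 to 0.70, limma adjusted p = 0.432). Without normal diet libraries 1, 2 and 3 its log2 fold change was -0.088. Slc2a1 was at 42.9, 67.8, 47.03, 46.8 and 47.95 FPKM in normal diet libraries 1 to 5 and 49.9, 41.2, 51.1, 46.9 and 45.1 FPKM in pro-inflammatory diet libraries 1 to 5. Normal diet library 2 was the highest, at 67.8 FPKM, and the other 9 lay between 41.2 and 51.1 FPKM (log2 fold change -0.092, 95% interval -0.35 to 0.17, limma adjusted p = 0.682).

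The carriers Slc2a5 and Slc2a2 were scarce. Slc2a5, the fructose carrier GLUT5, was at 0.837, 0.5695, 0.936, 2.21 and 2.098 FPKM in normal diet libraries 1 to 5 and 2.41, 1.42, 1.54, 2.22 and 2.29 FPKM in pro-inflammatory diet libraries 1 to 5, from 24 to 115 reads. Normal diet libraries 1, 2 and 3 held under 1 FPKM, while libraries 4 and 5 of that diet lay among the pro-inflammatory diet libraries (log2 fold change 0.40, 95% interval -0.075 to 0.88, limma adjusted p = 0.346). Without libraries 1, 2 and 3 the log2 fold change was -0.10. Slc2a2, the carrier GLUT2 of liver, islets and small intestine, was at 1.63 FPKM in normal diet library 4, from 74 reads, and at 0.022 to 0.46 FPKM, from 1 to 21 reads, in 7 others. It was listed at 0 in normal diet libraries 1 and 2, where a count of 0 allows up to 0.0709 and 0.0744 FPKM (3 reads, counting error only). In normal diet library 4 the small intestine genes Sis and Lct were at 17.6 and 1.47 FPKM, against at most 4.12 and 0.0555 FPKM in the other 9, and the sum of the 6 small intestine markers was 175 FPKM there, 418 and 510 FPKM in pro-inflammatory diet libraries 2 and 5, and 33.9 to 151 FPKM in the other 7.

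Control of the pathway by fructose 2,6-bisphosphate and oxygen was read from the remaining members. Pfkfb3 makes that activator of phosphofructokinase in growing and hypoxic cells. It was at 2.2, 1.86, 2.303, 3.15 and 2.93 FPKM in normal diet libraries 1 to 5 and 3.33, 3.23, 1.89, 1.85 and 2.56 FPKM in pro-inflammatory diet libraries 1 to 5. The highest value and the lowest were both on the pro-inflammatory diet (log2 fold change 0.025, 95% interval -0.31 to 0.36, limma adjusted p = 0.943). Pfkfb4, its relative, was more abundant, at 6.26, 6.17, 6.14, 7.11 and 6.48 FPKM in normal diet libraries 1 to 5 and 7.58, 5.33, 7.83, 7.41 and 6.63 FPKM in pro-inflammatory diet libraries 1 to 5. The pro-inflammatory diet libraries held both the lowest and the 3 highest values (log2 fold change 0.089, 95% interval -0.12 to 0.29, limma adjusted p = 0.609).

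Pdk1, a kinase that limits pyruvate oxidation in mitochondria, had the smallest p of Slc2a1, Hk2, Pfkfb3, Pdk1, Bnip3 and Egln3, called HIF-linked members here. Pdk1 (chromosome 2, 71873224 to 71903858, plus strand) was at 9.42, 7.93, 7.05, 9.75 and 9.72 FPKM in normal diet libraries 1 to 5 and 11.8, 7.93, 12.4, 14.7 and 11.6 FPKM in pro-inflammatory diet libraries 1 to 5. Pro-inflammatory diet libraries 1, 3, 4 and 5 lay above all 5 normal diet libraries and library 2 lay among them (log2 fold change 0.36, 95% interval 0.045 to 0.68, limma adjusted p = 0.242). Bnip3, a mitophagy receptor, was at 11.8, 9.92, 9.52, 19.2 and 15.1 FPKM in normal diet libraries 1 to 5 and 19.8, 8.26, 16.3, 19.8 and 9.95 FPKM in pro-inflammatory diet libraries 1 to 5. Its values formed a high set, with normal diet libraries 4 and 5 and pro-inflammatory diet libraries 1, 3 and 4 at 15.1 to 19.8 FPKM, and a low set at 8.26 to 11.8 FPKM (log2 fold change 0.13, 95% interval -0.46 to 0.72, limma adjusted p = 0.809). Egln3, the prolyl hydroxylase PHD3 that marks HIF for destruction (chromosome 12, 54178981 to 54203860, minus strand), was at 16.6, 19.9, 17.7, 26.7 and 32.2 FPKM in normal diet libraries 1 to 5 and 37.1, 10.04, 25.8, 24.96 and 12.8 FPKM in pro-inflammatory diet libraries 1 to 5. Both Hoxb13-low libraries held the lowest Egln3 of the 10 (log2 fold change -0.13, 95% interval -0.86 to 0.60, limma adjusted p = 0.849), and without them the log2 fold change was 0.38. Of the other HIF-linked members described above, Slc2a1 and Hk2 had their highest values in normal diet library 2, where Bnip3 was low.

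Many members shared the same high libraries. For 14 of the 33, the 4 highest libraries were normal diet library 4 and pro-inflammatory diet libraries 1, 3 and 4: Hk1, Aldoa, Aldoc, Tpi1, Pgk1, Pgam1, Eno1, Eno3, Pkm, Ldha, Slc2a2, Slc5a1, Pfkfb4 and Bnip3. This grouping was chosen after the values were seen and carries no test. Pfkl, Pklr, Ldhb, Fbp2, Slc2a1, Hk2 and both Pck genes were not among them. Pro-inflammatory diet library 2 was the lowest of the 10 for 11 members, among them Eno3, Egln3, Bnip3, Pgk1 and Pkm. Normal diet library 4 was the highest for 5, Pfkm, Aldoa, Gapdh, Slc2a2 and Slc5a1. In 32 members with a read in every library, the highest library was under 1.5 times the lowest for 9 and at least 2 times for 13.

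**Figure D4:**
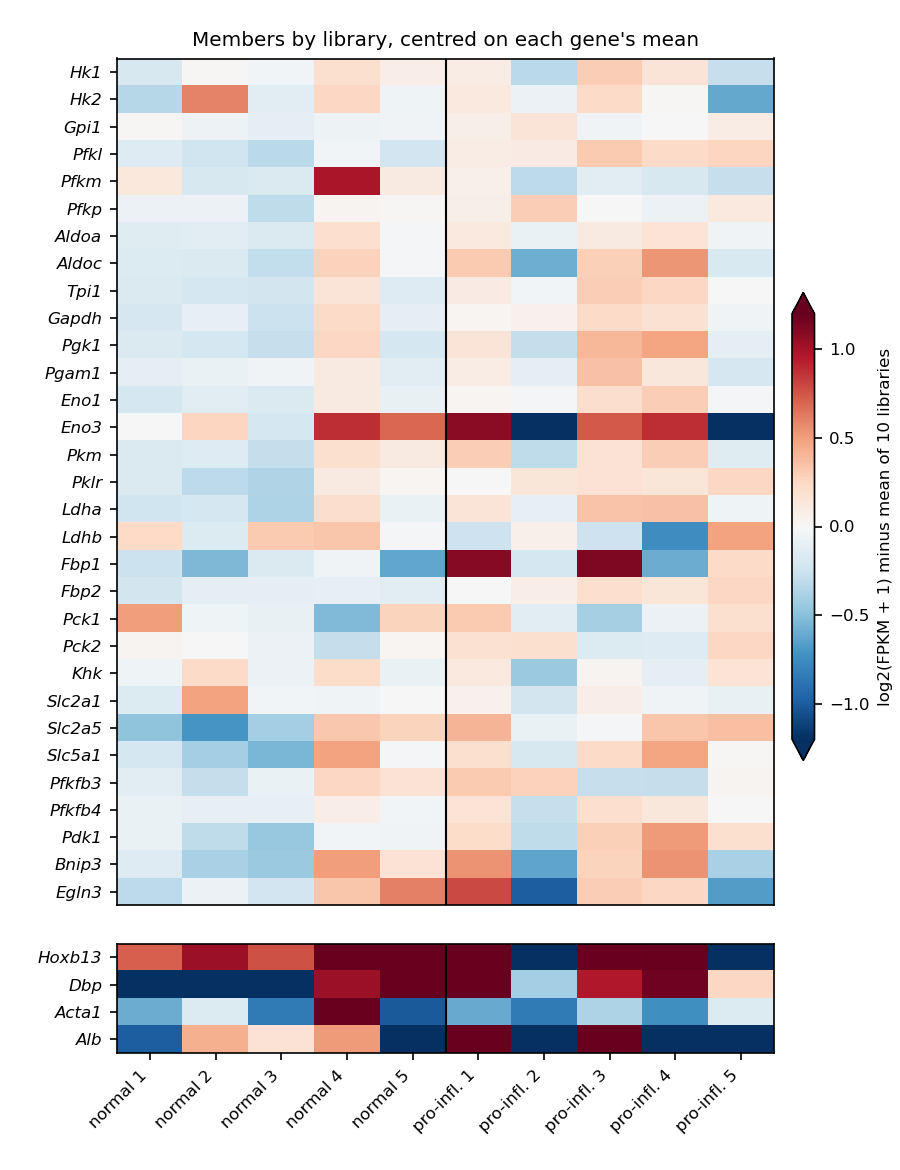
Log2(FPKM + 1) minus the mean over 10 libraries, for the 31 members with a mean of at least 1 FPKM (upper block) and for 4 genes that set libraries apart (lower block), with 1 column per library. The colour scale ends at 1.2 in each direction. Pro-inflammatory diet libraries 2 and 5 are lowest in Eno3, Egln3 and Hoxb13, and normal diet libraries 1, 2 and 3 are low in Dbp.

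The sequences before the starts of 6 members are given because 4 of them, Pgk1, Ldha, Bnip3 and Egln3, are textbook HIF targets, and Fbp2 and Pfkl are those whose diets did not overlap, a choice made after the values were seen. Each is the 250 bases before the RefSeq start in GRCm38.p6, 5′ to 3′ on the gene's strand. The RefSeq starts need not be the outer ends of the gene spans given above, which are from GENCODE. The windows of Ldha and Pfkl lie inside those spans, and that of Fbp2 overlaps its span. Capitals mark ACGTG, the form of the HIF core searched here, on either strand (CACGT when read on the other). The form GCGTG was neither marked nor counted, so the word core below means ACGTG only. The E-box CACGTG, which clock and glucose-sensing factors bind, contains that core on both strands.
Pgk1 (chrX:106186850-106187099, plus strand): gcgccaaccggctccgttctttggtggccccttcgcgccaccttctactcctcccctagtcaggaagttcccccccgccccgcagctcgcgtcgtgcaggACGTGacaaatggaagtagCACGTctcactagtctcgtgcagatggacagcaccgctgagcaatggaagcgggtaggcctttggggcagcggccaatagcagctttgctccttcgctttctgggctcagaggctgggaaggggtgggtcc
Ldha (chr7:46845554-46845803, plus strand): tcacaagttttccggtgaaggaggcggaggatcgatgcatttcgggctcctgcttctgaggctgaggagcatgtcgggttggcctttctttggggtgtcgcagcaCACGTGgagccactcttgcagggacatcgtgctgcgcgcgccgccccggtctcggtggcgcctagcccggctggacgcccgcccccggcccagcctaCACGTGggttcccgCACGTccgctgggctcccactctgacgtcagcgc
Bnip3 (chr7:138909507-138909756, minus strand): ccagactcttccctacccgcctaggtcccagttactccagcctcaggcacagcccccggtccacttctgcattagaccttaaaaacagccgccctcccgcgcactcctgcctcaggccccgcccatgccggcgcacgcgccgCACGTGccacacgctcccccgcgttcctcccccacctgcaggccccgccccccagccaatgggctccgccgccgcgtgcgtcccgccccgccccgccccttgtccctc
Egln3 (chr12:54203875-54204124, minus strand): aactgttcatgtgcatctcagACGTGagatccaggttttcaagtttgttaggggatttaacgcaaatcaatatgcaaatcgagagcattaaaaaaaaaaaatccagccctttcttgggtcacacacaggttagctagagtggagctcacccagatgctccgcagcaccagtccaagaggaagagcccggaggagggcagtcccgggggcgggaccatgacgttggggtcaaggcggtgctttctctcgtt
Fbp2 (chr13:62858401-62858650, minus strand): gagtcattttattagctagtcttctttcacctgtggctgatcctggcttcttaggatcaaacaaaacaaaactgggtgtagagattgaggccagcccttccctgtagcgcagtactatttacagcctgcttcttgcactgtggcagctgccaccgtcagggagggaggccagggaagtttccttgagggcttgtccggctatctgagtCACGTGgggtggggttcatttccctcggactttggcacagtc
Pfkl (chr10:78009808-78010057, minus strand): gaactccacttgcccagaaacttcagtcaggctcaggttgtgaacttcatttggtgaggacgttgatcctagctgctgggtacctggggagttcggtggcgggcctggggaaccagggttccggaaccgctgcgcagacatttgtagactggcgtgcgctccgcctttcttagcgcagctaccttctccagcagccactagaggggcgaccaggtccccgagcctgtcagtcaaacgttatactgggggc
Pgk1 held the core in 2 places, beginning 150 and 131 bases before the start. Ldha held 3 marked stretches, at 145, 48 and 34 bases, and the first 2 are E-boxes. Bnip3 and Fbp2 each held 1 E-box, at 108 and 42 bases, Egln3 held 1 core at 229 bases, and Pfkl held no ACGTG on either strand in this window. Where the table lists several starts, the first was used. Over all starts of the table, 16.6% of such windows held the core and 6.02% the E-box, beside 18 (38.3%) and 7 (14.9%) of the 47 windows of the members. By gene, 15 of 33 members (45.5%) had the core before at least 1 start, beside 18.5% of all genes. A match describes letters in the window and no binding was measured.

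Isoforms were compared within each library, as log2 ratios of FPKM + 0.1, which hardly depend on the library's scaling. Of 12 ratios, 0 had an adjusted p under 0.05 in an exact permutation test, two-sided, whose smallest possible p is 0.00794 before adjustment over the 12. A single ratio at that smallest p gets an adjusted p of 0.0952, so 1 ratio alone could not pass the threshold. Pfkl/Pfkm was the only ratio of the 12 whose groups did not overlap. It was 2.21, 2.49, 2.39, 1.41 and 2.17 in normal diet libraries 1 to 5 and 2.54, 2.99, 2.99, 2.97 and 3.10 in pro-inflammatory diet libraries 1 to 5. Pfkl was above Pfkm in 10 of 10 libraries, and every pro-inflammatory diet ratio lay above every normal diet ratio (difference 0.78, SE 0.21, two-sided exact permutation p = 0.00794, adjusted p = 0.0952). Normal diet library 4, with its skeletal muscle markers, had the lowest ratio, and the difference was 0.60 without it. Pfkl/Pfkp was -0.45, -0.54, -0.38, -0.43 and -0.61 in normal diet libraries 1 to 5 and -0.34, -0.56, -0.038, -0.058 and -0.22 in pro-inflammatory diet libraries 1 to 5. Pfkp exceeded Pfkl in every library and the groups overlapped (difference 0.24, SE 0.10, two-sided exact permutation p = 0.0635, adjusted p = 0.381).

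The dominant isoform of most pairs was the same in all 10 libraries. Pkm exceeded Pklr, which made 11.6% to 17.9% of the pair's FPKM. Pklr/Pkm was -2.65, -2.82, -2.73, -2.73 and -2.73 in normal diet libraries 1 to 5 and -2.93, -2.19, -2.64, -2.79 and -2.24 in pro-inflammatory diet libraries 1 to 5. The 2 highest ratios were in pro-inflammatory diet libraries 2 and 5, and the normal diet libraries lay close together (difference 0.17, SE 0.15, two-sided exact permutation p = 0.341, adjusted p = 0.512). Without those 2 libraries the sign of the difference turned. Ldha exceeded Ldhb, which made 2.87% to 9.88% of the pair (difference -0.58, SE 0.33, two-sided exact permutation p = 0.127, adjusted p = 0.381). Aldoa exceeded Aldoc, which made 0.945% to 1.95% (difference 0.051, SE 0.19, two-sided exact permutation p = 0.833, adjusted p = 0.833).

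Eno1 exceeded Eno3, whose share of the pair ran over 1.25% to 15.9% with the lowest values in pro-inflammatory diet libraries 2 and 5 (difference -0.94, SE 0.81, two-sided exact permutation p = 0.389, adjusted p = 0.518). Fbp2 made 96.6% to 99.7% of the bisphosphatase pair (difference -0.80, SE 0.64, two-sided exact permutation p = 0.278, adjusted p = 0.4898), and Pck1 made 83.1% to 89.7% of its pair (difference -0.17, SE 0.15, two-sided exact permutation p = 0.286, adjusted p = 0.4898). Pfkfb4 exceeded Pfkfb3 in 10 of 10 libraries, making 62.3% to 80.6% of the pair (difference 0.071, SE 0.27, two-sided exact permutation p = 0.778, adjusted p = 0.833). In these 4 pairs the dominant gene was the same in every library.

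In the hexokinase and the Slc5a1 and Slc2a1 pairs, the more abundant gene was not the same in every library. Hk2 made 39.1% to 55.2% of Hk1 and Hk2 and exceeded Hk1 in 1 library, normal diet library 2 (difference -0.11, SE 0.17, two-sided exact permutation p = 0.587, adjusted p = 0.705). Slc5a1/Slc2a1 was 0.018, -0.84, -0.46, 0.60 and 0.050 in normal diet libraries 1 to 5 and 0.21, 0.095, 0.21, 0.59 and 0.17 in pro-inflammatory diet libraries 1 to 5. Slc5a1 exceeded Slc2a1 in 8 of 10 libraries, all but normal diet libraries 2 and 3 (difference 0.38, SE 0.26, two-sided exact permutation p = 0.175, adjusted p = 0.419). Slc2a5 stayed at 0.833% to 4.83% of its sum with Slc2a1 (difference 0.77, SE 0.45, two-sided exact permutation p = 0.0952, adjusted p = 0.381), and the sign of that difference turned without normal diet libraries 1, 2 and 3.

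**Figure D5:**
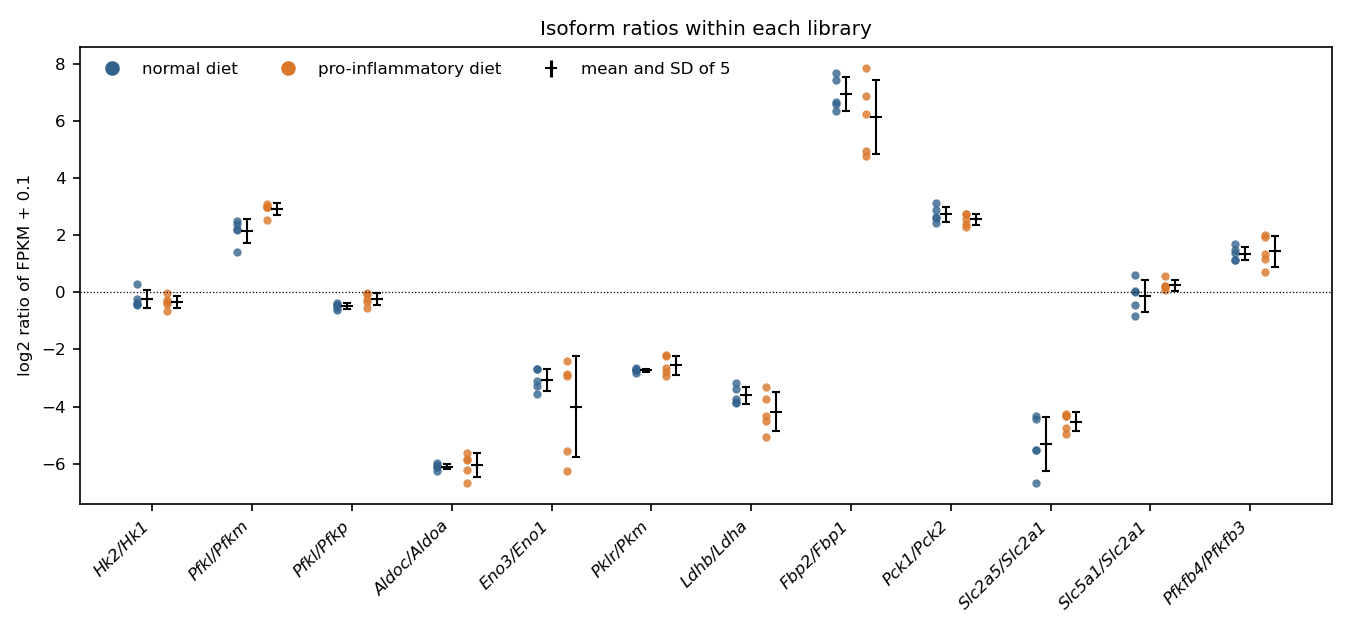
Log2 ratio of FPKM + 0.1 for 12 isoform or carrier pairs, with 1 point per library (normal diet in blue, pro-inflammatory diet in orange) and the mean and SD of 5 beside them. Pfkl/Pfkm is the pair whose groups did not overlap, and Eno3/Eno1 spread most on the pro-inflammatory diet (SD 1.77).

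Genes around the pathway were counted over 9 further lists, and 0 of their 96 tested genes passed the adjusted threshold. Unadjusted counts below stand beside the 8.16% of all tested genes that were higher and the 9.25% that were lower, and means are given ± SD, n = 5 each, normal diet first. Groups did not overlap for Pgls, Pgm1, Mdh1, Mdh2 and Car9, higher on the pro-inflammatory diet, and for Pygm and Ero1a, lower. Of all tested genes, 1.77% did so in the higher and 2.07% in the lower direction. The pentose phosphate genes, which branch off at glucose 6-phosphate to make NADPH and ribose, had log2 fold changes above 0 in 8 of 8, with 4 at an unadjusted p under 0.05. Tkt, transketolase, was at 82.6 ± 8.896 against 114 ± 13.97 FPKM (log2 fold change 0.45, limma adjusted p = 0.151) and Pgd, which makes NADPH, at 94.1 ± 9.72 against 120.0 ± 11.7 FPKM (log2 fold change 0.35, limma adjusted p = 0.166). Other isozymes of the pathway had 5 of 10 above 0 and 3 higher at an unadjusted p under 0.05, with Pgam2 past the filter only through the normal diet group. Pgm1, a phosphoglucomutase, was at 19.4, 18.2, 18, 23.1 and 19.1 FPKM in normal diet libraries 1 to 5 and 25.5, 31.8, 24.9, 26.2 and 32.4 FPKM in pro-inflammatory diet libraries 1 to 5. Its groups did not overlap (log2 fold change 0.50, limma adjusted p = 0.151).

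Genes of glucose output, fructose, polyols and the malate shuttle had 6 of 12 above 0, with 2 higher at an unadjusted p under 0.05. These were the malate dehydrogenases, Mdh2 of mitochondria at 230.2 ± 8.61 against 272 ± 13.4 FPKM (log2 fold change 0.24, limma adjusted p = 0.154) and Mdh1 of the cytosol at 168 ± 3.39 against 182 ± 8.34 FPKM (log2 fold change 0.11, limma adjusted p = 0.283). Pyruvate and lactate handling had 9 of 15 above 0 and 3 higher at an unadjusted p under 0.05. Mpc2, a subunit of the mitochondrial pyruvate carrier, was at 68.5 ± 5.72 against 77.8 ± 4.81 FPKM (log2 fold change 0.18, limma adjusted p = 0.225) and Pdhx of the pyruvate dehydrogenase complex at 8.91 ± 1.39 against 10.6 ± 0.901 FPKM (log2 fold change 0.23, limma adjusted p = 0.264). Other sugar carriers had 4 of 9 above 0 and none at an unadjusted p under 0.05 (0 of 9). Slc2a8 was at 4.54 ± 0.399 against 3.87 ± 0.807 FPKM and Slc2a6 at 0.724 ± 0.379 against 1.37 ± 0.751 FPKM, where Slc2a6 passed the filter on low values only through the pro-inflammatory diet group.

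Glycogen genes had 5 of 11 above 0, with 1 lower at an unadjusted p under 0.05. That was Ppp1r3c, a glycogen-targeting subunit of protein phosphatase, at 3.86 ± 1.44 against 2.25 ± 0.451 FPKM (log2 fold change -0.54, limma adjusted p = 0.218). Pygm, the muscle glycogen phosphorylase, was at 4.47, 3.76, 3.82, 25.4 and 4.297 FPKM in normal diet libraries 1 to 5 and 2.93, 3.74, 1.88, 2.36 and 3.26 FPKM in pro-inflammatory diet libraries 1 to 5. It peaked in normal diet library 4, the library with skeletal muscle markers, and its groups did not overlap (log2 fold change -0.90, limma adjusted p = 0.309). The HIF pathway itself had 1 of 8 above 0, with 2 lower at an unadjusted p under 0.05. Epas1, which encodes HIF-2α, was at 54.3, 60.5, 52.4, 52.2 and 68.7 FPKM in normal diet libraries 1 to 5 and 55.6, 32.9, 39.3, 46.7 and 32.3 FPKM in pro-inflammatory diet libraries 1 to 5. Its lowest 2 values were in the Hoxb13-low libraries 2 and 5 (log2 fold change -0.49, limma adjusted p = 0.182). Hif1an, which hydroxylates HIF, was at 15.8 ± 1.34 against 13.9 ± 1.18 FPKM (log2 fold change -0.17, limma adjusted p = 0.268).

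Other HIF targets were split, with 6 of 16 above 0, and at an unadjusted p under 0.05 there were 2 higher and 3 lower. Car9, a carbonic anhydrase, was at 19.4, 20.2, 17.2, 20.2 and 17.8 FPKM in normal diet libraries 1 to 5 and 20.7, 24.97, 23.9, 22.3 and 26.8 FPKM in pro-inflammatory diet libraries 1 to 5. Its groups did not overlap (log2 fold change 0.31, limma adjusted p = 0.166). Adm, the peptide adrenomedullin, had a negative log2 fold change, at 4.21 ± 0.382 against 2.73 ± 0.863 FPKM (log2 fold change -0.51, limma adjusted p = 0.173). Regulators had 1 of 7 above 0, with 3 lower at an unadjusted p under 0.05. Foxk1, a transcription factor that promotes aerobic glycolysis, was at 13.8 ± 0.889 against 11.4 ± 1.17 FPKM (log2 fold change -0.27, limma adjusted p = 0.173) and Pfkfb2, a relative of Pfkfb3, at 10.4 ± 0.786 against 9.07 ± 0.852 FPKM (log2 fold change -0.18, limma adjusted p = 0.259).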

How the data were processed

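Colon RNA of 10 samples, grouped by the treatment label, was read from 1 deposited table of FPKM values per gene symbol, made by the authors. Per the labels' protocols, RNA with an integrity number of at least 7 went into stranded, paired-end mRNA libraries. The submitters' processing notes list HISAT2, Bowtie2, Trimmomatic, StringTie, Cufflinks, HTSeq and DESeq, and the mm10 build, with no roles. Strand use in counting is not stated there. Values of 18398 of 18398 genes were whole multiples of 1 read within 0.001 read, which gave the reads per library. For the 12345 genes whose mean reached 1 FPKM, log2(FPKM + 1) was fitted in limma 3.58.1 under R 4.3.3 (eBayes with a mean trend, Benjamini-Hochberg over all tested genes, threshold 0.05). Fold changes are on that scale and understate those of low genes. Scripts were tested on simulated data. The members and lists were chosen with earlier results of these data known. Every member is described, values per library are given for members with an unadjusted p under 0.05 or groups that do not overlap, the most abundant of each step or carrier family and the HIF-linked members, and up to 2 genes of smallest p are named per further list, of which 1 is not reported here. Genes of the further lists whose groups did not overlap are also named. Pfkm, Eno3, Fbp1, Slc2a5, Ldhb, Pygm, Pgm1, Epas1, Car9 and the genes that set libraries apart were given per library after their values were seen. Isoform ratios used Python 3.11.15, figures matplotlib 3.10.9. Coordinates are from GENCODE M21 (GRCm38, the assembly of mm10), promoters from RefSeq GRCm38.p6, matched by symbol for 33 of 33 members. The alternatives changed the pseudocount, filter, scaling, variance model, weights, covariates and libraries.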

Additional observations from a re-analysis of the deposited data

Results flagged for a closer look

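In groups of 5 libraries, a library was listed here when its gap to the nearest other exceeded 0.71 of the group's range, Dixon's critical value, which chance reaches in about 1 of 20 groups. Of 66 groups of member values 6 were listed, and of 24 groups of ratios 3.

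Normal diet library 4 held 4 of them: Pfkm at 14.5 FPKM (others 5.88 to 7.58), Tpi1 at 365 (others 282 to 294), Pgk1 at 191 (others 133 to 143) and Slc2a2 at 1.63 (others 0 to 0.043). This library had the skeletal muscle markers given above and the highest Sis and Lct. The summed small intestine markers were higher in pro-inflammatory diet libraries 2 and 5, at 418 and 510 FPKM, against 175 FPKM in normal diet library 4. The part of these markers in the 4 values was not tested. Normal diet library 2 held Slc2a1 at 67.8 FPKM (others 42.9 to 48.0) and a Hk2/Hk1 log2 ratio of 0.30 (others -0.44 to -0.23). Normal diet library 1 held Fbp2 at 81.3 FPKM (others 87.1 to 88.8). On the pro-inflammatory diet, library 1 had a Pfkl/Pfkm log2 ratio of 2.54 (others 2.97 to 3.10) and library 4 a Slc5a1/Slc2a1 log2 ratio of 0.59 (others 0.095 to 0.21).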

How the results depend on the processing

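No member passed the adjusted threshold in any of the 27 alternatives (0 of those tested, lowest adjusted p 0.0604, with array weights). Over all genes 0 were called, except 1 with the clock score and 1 with the distal colon score as covariate. Same-numbered libraries of the diets did not deviate together (correlations -0.263 to 0.0613, and 0 of 5 best with their own number). Whether the numbers share more than a label, such as a batch, cannot be told from these correlations. The replicate block gave 0 members called and 8 higher at an unadjusted p under 0.05, beside 7.07% of all tested genes. Without the block there were 6, beside 8.16%. For the ratios, a sign-flip test of 5 pairs cannot reach the threshold and says nothing of their stability.

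The 6 members higher at an unadjusted p under 0.05 (all tested genes 8.16%) became 16 with array weights (10.7%) and 3 with the clock score (8.22%). With the distal colon score the count was 19 (8.89%). It was 14 without pro-inflammatory diet libraries 2 and 5 (8.06%) and 2 without normal diet libraries 1, 2 and 3 (1.81%). Without pro-inflammatory diet libraries 1 and 3 it was 3 (9.86%). Without normal diet library 4 and the Hoxb13-low pair, a setting chosen after seeing the data, it was 20 (11.8%). The median log2 fold change in that setting was 0.32 against 0.12. Leaving out single libraries gave 3 (5.25% and 5.82%) to 12 (9.87%). Fbp1, past the filter on low values only through the pro-inflammatory diet group, is among the 14 and the 20. The 0 lower members became 1 with array weights (all tested genes 12.7%), the clock score (8.5%), the distal colon score (9.38%), without normal diet libraries 1, 2 and 3 (2.26%), without the Hoxb13-low pair (7.36%) and without that pair and normal diet library 4 (12.2%). The tissue make-up score gave 2 (5.24%), and single libraries left out gave 0 to 1, the 1 being without pro-inflammatory diet library 5 (6.54%). The cause was not tested.

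Uncalled log2 fold changes turned sign as follows. With array weights they were Hk1 0.11, Hk2 0.019, Eno3 0.20, Pfkfb3 -0.056 and Egln3 0.18. With the clock score they were Aldoc -0.069, Pkm -0.050, Pck1 0.023, Pfkfb3 -0.063 and Bnip3 -0.20. With the distal colon score they were Hk1 0.17, Hk2 0.028, Eno3 0.64, Pfkfb3 -0.060 and Egln3 0.44. The tissue make-up score gave Pck1 0.31 and Egln3 0.055. Without normal diet libraries 1, 2 and 3 they were Aldoa -0.035, Aldoc -0.059, Pkm -0.090, Pck1 0.11, Slc2a5 -0.098, Slc5a1 -0.088, Pfkfb3 -0.20 and Bnip3 -0.27, and the ratio differences were -0.040 for Aldoc/Aldoa, -0.13 for Slc2a5/Slc2a1 and -0.070 for Slc5a1/Slc2a1. Without pro-inflammatory diet libraries 2 and 5 they were Hk1 0.17, Hk2 0.054, Eno3 0.58, Pfkfb3 -0.070 and Egln3 0.38, with Eno3/Eno1 at 0.33 and Pklr/Pkm at -0.054. Without normal diet library 4 as well they were Hk1 0.21, Hk2 0.099, Eno3 0.72, Pck2 -0.037, Khk 0.0078, Pfkfb3 -0.0040 and Egln3 0.45, with Eno3/Eno1 at 0.42 and Pklr/Pkm at -0.054. Without pro-inflammatory diet libraries 1 and 3 they were Aldoc -0.0038, Pgam1 -0.0064, Pfkfb4 -0.0040 and Bnip3 -0.094, with Aldoc/Aldoa at -0.084, Fbp2/Fbp1 at 0.047 and Pfkfb4/Pfkfb3 at -0.030. Over single libraries left out, values crossing 0 ran from -0.34 to 0.10 for Egln3, -0.10 to 0.051 for Hk1, -0.23 to 0.0066 for Hk2, -0.15 to 0.0028 for Khk, -0.18 to 0.081 for Pck1, -0.051 to 0.10 for Pfkfb3 and -0.14 to 0.018 for Slc2a1, and for ratios from -0.052 to 0.21 for Aldoc/Aldoa, -0.19 to 0.027 for Hk2/Hk1 and -0.071 to 0.25 for Pfkfb4/Pfkfb3. Low read numbers limit Slc2a2, Hk3, Fbp1 and Slc2a5.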
